A study of Mus musculus with 6 samples.

Results

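Polycomb repressive complex 2 (PRC2) and its catalytic subunit Ezh2 were measured at the RNA level in 6 samples of bone marrow erythroblasts, on 1 Agilent whole mouse genome array per sample. The 10 genes were taken by name: the methyltransferases Ezh1 and Ezh2, the core subunits Eed, Suz12, Rbbp4 and Rbbp7, and the accessory subunits Jarid2, Aebp2, Phf19 and Mtf2. They are 10 of the 34761 genes named on the array and hold 17 of its 55681 probes. No measured value entered the choice. Of the 17 probes, 16 were bright enough to be tested, at least 1 for every gene, and a probe of Mtf2 did not clear background on a single array. Erythroblasts were sorted as CD71highTer119+ cells from C57Bl/6 mice of both sexes, 3 labelled P38α+/- (Mx1-Cre with 1 floxed P38α allele, P38α fl/+) and 3 labelled P38α-/- (Mx1-Cre with both alleles floxed, P38α fl/fl). All mice, the P38α+/- controls included, carried Mx1-Cre, received 300 µg of PolyIC 3 times at an age of 6 to 8 weeks, rested for 6 weeks, and were sampled on day 4 after 1 injection of 100 mg per kg phenylhydrazine (PHZ), which destroys red cells. Mx1-Cre is switched on by interferon throughout the haematopoietic system and in other tissues, so that neither the deletion nor the PolyIC exposure was limited to erythroblasts, and the controls were heterozygous rather than wild type.

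PRC2 places methyl groups on lysine 27 of histone H3, a mark that keeps genes silent. Ezh2 or its paralogue Ezh1 carries the catalytic SET domain, Eed binds the mark and stimulates the enzyme, Suz12 is the scaffold, and Rbbp4 and Rbbp7 are histone-binding proteins shared with other chromatin complexes. Jarid2 and Aebp2 define one form of the complex, and the Polycomb-like proteins Mtf2, Phf19 and Phf1 define the other. Ezh2 is typical of dividing cells and Ezh1 of cells that divide little, and the balance between them shifts as blood cells mature. The study asked about Ezh2 protein as a link between JNK signalling and Bcl2l11, which encodes the death factor Bim. The comparison here asked whether the RNA of Ezh2 and its partners differed between the genotypes.

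Between 28.9% and 53.1% of probes were well above background per array and no spot was saturated. Mapk14, which encodes P38α, had 2 tested probes, with log2 differences of 0.54 and 0.01 (P38α-/- minus P38α+/-, limma adjusted p = 0.186 and 0.990). On the scaling used here the P38α-/- arrays thus showed no loss of signal at these probes, and whether either lies in the deleted stretch was not determined, so every direction given below rests on the labels. The 13 genes of the late erythroid list, Gata1, Klf1 and the globins among them, were all tested, and their mean level was 4.16 ± 0.10 (SD, n = 3) in P38α+/- and 4.23 ± 0.16 (SD, n = 3) in P38α-/-. Its members included Trim58 at 0.51, Xpo7 at 0.25 and Alas2 at -0.09 (adjusted p = 0.148, 0.368 and 0.815), and all 13 genes were above 0 on the percentile of all probes. Neutrophil genes were also measured in every sample, and their mean level was 2.84 ± 0.80 (SD, n = 3) in P38α+/- and 1.41 ± 0.34 (SD, n = 3) in P38α-/-. P38α-/- replicate 3 was the single array on a second slide. The sample labels give the genotype and a replicate number, and do not say what mice of the same number share. The p-values weigh a difference between the genotypes against the spread between these 6 samples.

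The start regions of the genes are shown because the E2F factors, which drive genes of the S phase, are known regulators of PRC2 genes in dividing cells. RefSeq start regions of GRCm38.p6, 300 bases long with 250 before the start, were held for all 10 genes, 14 windows in all with a GC content of 45.67% to 75.67%. Both strands were searched for TTTCCCGC, TTTGGCGC and TTTCGCGC, which do not overlap each other in these windows. A match was found in 3 of the 14 windows, those of Ezh2, Suz12 and Phf19, beside 1.845% of all 32851 windows of this length and 10 of the 23 windows held for the list of E2F-regulated S phase genes described below. The erythroid GATA motif AGATAA, searched in the same way, was in 0 of the 14 windows and in 11.178% of all windows. The 3 windows with a match are at chr6:47594981-47595280 (minus strand) for Ezh2, chr11:79992856-79993155 (plus strand) for Suz12 and chr2:34913927-34914226 (minus strand) for Phf19, written 5′ to 3′ on the strand of the gene with the match in capitals. In Ezh2 the match begins 3 bases after the start, in Suz12 219 bases before it and in Phf19, where TTTCCCGC lies on the opposite strand, 208 bases before it.
Ezh2: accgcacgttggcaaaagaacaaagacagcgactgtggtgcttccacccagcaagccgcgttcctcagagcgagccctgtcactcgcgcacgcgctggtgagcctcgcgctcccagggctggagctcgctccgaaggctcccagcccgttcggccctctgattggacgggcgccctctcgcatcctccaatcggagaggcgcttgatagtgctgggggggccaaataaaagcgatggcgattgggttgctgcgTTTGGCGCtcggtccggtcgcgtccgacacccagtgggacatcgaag
Suz12: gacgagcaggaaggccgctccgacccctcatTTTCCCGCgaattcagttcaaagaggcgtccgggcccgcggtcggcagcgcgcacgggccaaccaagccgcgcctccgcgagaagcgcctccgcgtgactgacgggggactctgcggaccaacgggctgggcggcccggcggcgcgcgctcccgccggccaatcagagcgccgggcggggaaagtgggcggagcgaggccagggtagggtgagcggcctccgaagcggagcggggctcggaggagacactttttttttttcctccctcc
Phf19: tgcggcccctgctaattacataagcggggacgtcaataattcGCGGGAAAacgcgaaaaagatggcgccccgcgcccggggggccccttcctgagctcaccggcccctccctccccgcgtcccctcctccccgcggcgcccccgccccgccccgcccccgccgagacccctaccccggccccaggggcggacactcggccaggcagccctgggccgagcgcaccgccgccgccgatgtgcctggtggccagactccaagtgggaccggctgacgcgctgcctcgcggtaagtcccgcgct

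Ezh2, the catalytic subunit, was lower in every P38α-/- array than in any P38α+/- array, but by a small amount that did not pass the test. Values are log2 intensities relative to the 75th percentile of each array's detected probes, and a level can be compared between arrays but not between probes. Ezh2 read 0.43, 0.62 and 0.84 in P38α+/- replicates 1 to 3 and 0.01, 0.35 and 0.25 in P38α-/- replicates 1 to 3. The genotypes did not overlap, with P38α-/- replicate 1 the lowest and P38α+/- replicate 3 the highest of the 6. The log2 difference was -0.42 (SE 0.18, n = 3 per genotype), 1.34-fold lower in P38α-/-, with an adjusted p of 0.247 in limma and a two-sided exact permutation p of 0.10, the smallest that 3 arrays against 3 allow. Because the median of all tested probes was itself at -0.16 on this scaling, Ezh2 stood 0.27 below the median probe, at percentile 29.8 of all log2 differences. Its sign turned, to 0.057, when arrays were scaled on the percentile of all probes, whereas relative to the median probe it stayed negative in the main comparison and all 18 alternatives, between -0.49 and -0.13. Recentring the arrays or changing the test does not move a value relative to the median probe, here or below. Several of the alternatives therefore repeat the main value and are no further support. In a bulk sample, fewer cells of a type and less RNA per cell cannot be told apart.

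Ezh1, the paralogue that can replace Ezh2, was read by 4 probes that lie at chr11:101052430-101058781 of mm9. The brightest read 1.33, 1.55 and 1.30 in P38α+/- and 1.21, 1.42 and 1.13 in P38α-/-. These values overlapped, and replicate 2 was the highest in both genotypes. The log2 difference was -0.14 (SE 0.16, limma adjusted p = 0.662), within 0.02 of the median probe, and its sign turned to 0.34 on the percentile of all probes and 0.22 on spike-in scaling. The next probe gave the same difference, -0.14, and the 2 dimmest gave -0.42 (SE 0.35) and -0.60 (SE 0.40), with adjusted p-values of 0.529 and 0.432. Both dim probes turned positive under quantile normalization, at 0.11 and 0.23, and the dimmest cleared background on 2 of 3 P38α-/- arrays. The larger differences of the dim probes came with the widest errors of the 4, and P38α-/- replicate 1 was the lowest array for both. Without that array they were -0.037 and -0.18.

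**Figure D1:**
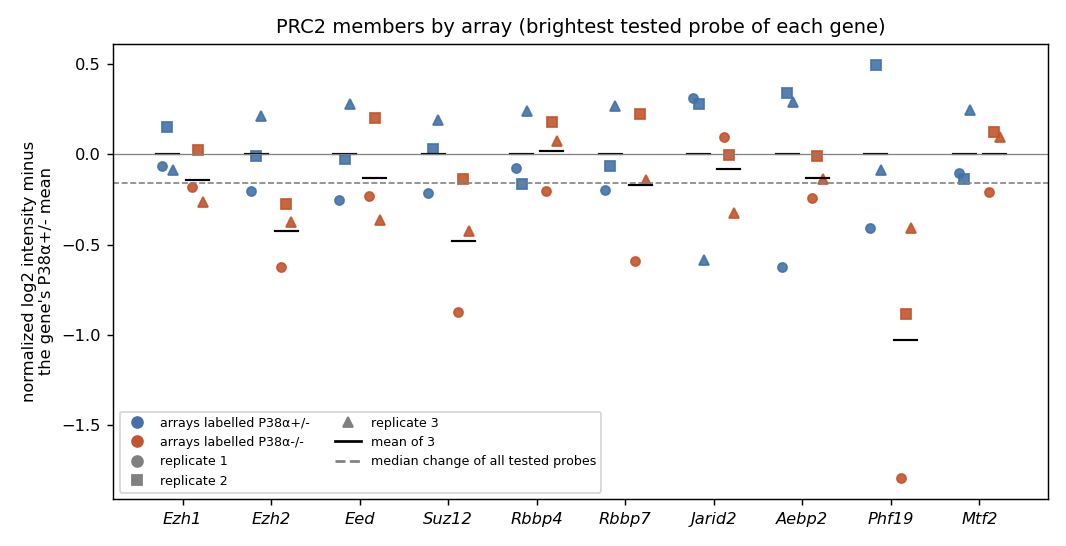
Normalized log2 intensity of the brightest tested probe of each PRC2 gene in each array, as the difference from the gene's mean in the 3 arrays labelled P38α+/- (blue, with the 3 arrays labelled P38α-/- in orange, marker shape for the replicate and a black line for each mean). The dashed line is the median log2 difference of all tested probes, -0.16. Among these probes Ezh2 is the gene whose orange points all lie under its blue points, and Phf19 has the widest spread.

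Suz12, the scaffold without which PRC2 is unstable, had the profile nearest to that of Ezh2 among the members. It read -0.46, -0.22 and -0.06 in P38α+/- and -1.12, -0.39 and -0.67 in P38α-/-. The genotypes overlapped by 1 pair of arrays, since P38α+/- replicate 1 was below P38α-/- replicate 2. The log2 difference was -0.48 (SE 0.23, limma adjusted p = 0.296), 1.39-fold lower, and 0.32 under the median probe. It was 0.0031 on the percentile of all probes, and relative to the median probe it ranged from -0.52 to -0.12 over the main comparison and the 18 alternatives. Eed, which reads the H3K27 mark, read -0.13, 0.10 and 0.40 in P38α+/- and -0.11, 0.32 and -0.24 in P38α-/-. For Eed the genotypes were intermixed, with a log2 difference of -0.13 (SE 0.22, adjusted p = 0.779) that turned positive on the percentile of all probes, at 0.35, and on spike-in scaling, at 0.23.

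Rbbp4 and Rbbp7, the shared histone-binding subunits, showed no difference larger than the spread between arrays. The brightest Rbbp4 probe read 3.50, 3.41 and 3.81 in P38α+/- and 3.37, 3.75 and 3.64 in P38α-/-. Its log2 difference was 0.02 (SE 0.19, adjusted p = 0.972), and that of the second probe was 0.23 (SE 0.24, adjusted p = 0.629). The second probe was above 0 in the main comparison and in all 18 alternatives, from 0.02 to 0.71, while the brighter one changed sign among them. The brightest Rbbp7 probe read 0.91, 1.04 and 1.38 in P38α+/- and 0.52, 1.33 and 0.97 in P38α-/-, a log2 difference of -0.17 (SE 0.25, adjusted p = 0.743), which was 0.31 on the percentile of all probes. A second Rbbp7 probe gave 0.02 (SE 0.27, adjusted p = 0.973). The intervals of 1 standard error around the 2 probes of each gene overlapped.

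The accessory subunits Jarid2 and Mtf2, which guide PRC2 to DNA, were nearly level between the genotypes. Jarid2 read -2.29, -2.32 and -3.19 in P38α+/- and -2.51, -2.61 and -2.93 in P38α-/-, a log2 difference of -0.08 (SE 0.29, adjusted p = 0.902) that was 0.40 on the percentile of all probes. P38α+/- replicate 3 was the lowest of the 6 arrays. Mtf2 read -1.77, -1.80 and -1.42 in P38α+/- and -1.88, -1.54 and -1.57 in P38α-/-, with a log2 difference of 0.00 (SE 0.18, adjusted p = 0.994). Relative to the median probe Mtf2 lay above 0 in the main comparison and all 18 alternatives, from 0.06 to 0.32.

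Phf19, a Polycomb-like protein that binds methylated lysine 36 of histone H3, had the lowest log2 difference of the 10 genes and is among the dimmest. It read -5.21, -4.30 and -4.89 in P38α+/- and -6.59, -5.68 and -5.20 in P38α-/-. P38α-/- replicate 3 was just above P38α+/- replicate 1, so that the genotypes overlapped, and the probe cleared background on 2 of the 3 P38α-/- arrays. Phf19 thus entered the test only through P38α+/-, and the filter favoured its direction. The log2 difference was -1.03 (SE 0.41, unadjusted p = 0.0419, limma adjusted p = 0.222), 2.04-fold lower. On the values normalized by the authors it was 0.047, and relative to the median probe it was between -1.19 and -0.015 in the comparisons that tested it.

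Aebp2, a DNA-binding partner of Suz12, gave different values with its 2 probes. The brighter probe by mean over the arrays read -4.53, -3.57 and -3.62 in P38α+/- and -4.15, -3.91 and -4.04 in P38α-/-, a log2 difference of -0.13 (SE 0.29, adjusted p = 0.836), which was 0.56 under quantile normalization. The other read -4.03, -3.44 and -3.83 in P38α+/- and -4.60, -4.26 and -4.97 in P38α-/-. That probe did not overlap between the genotypes, with a log2 difference of -0.85 (SE 0.25, unadjusted p = 0.0133, adjusted p = 0.152), and its sign was the same in the main comparison and all 18 alternatives, from -1.23 to -0.24. With arrays weighted by their quality its adjusted p was 0.0230, a fit in which 1462 genes were called in all. There P38α-/- replicate 3, the lowest for this probe, had a weight of 3.95 and P38α+/- replicate 2 one of 2.14. The remaining arrays had weights of 0.47 to 0.77. The probes lie at chr6:140596546-140596605 (the one with the larger difference) and chr6:140603895-140603954, so that they read stretches several kilobases apart.

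**Figure D2:**
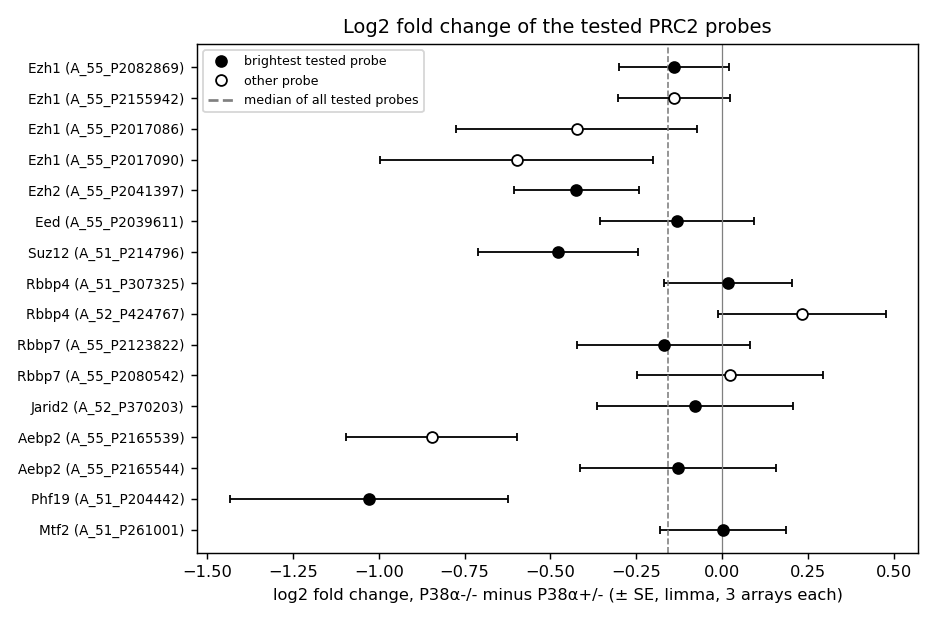
Log2 difference (P38α-/- minus P38α+/-) of the 16 tested PRC2 probes with limma's standard error, 3 arrays per genotype, filled points for the brightest tested probe of a gene and open points for the others. The dashed line is the median of all tested probes at -0.16. Most points lie within 1 standard error of that line, and the second Aebp2 probe at -0.85 and the Phf19 probe at -1.03 lie farthest below it.

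Read by the brightest tested probe, none of the 10 PRC2 genes was called, at an adjusted p of at most 0.05 and a 2-fold change, in the main comparison or in any of the 18 alternatives, while the second Aebp2 probe passed both thresholds with array weights. Of all 14155 genes tested 24 were called, which is 0.170%, 19 of them higher and 5 lower in P38α-/-. With the replicate numbers as pairs, 53 genes were called, 24.5% of them higher, and still no PRC2 gene, with adjusted p-values of 0.141 for Ezh2, 0.158 for Suz12 and 0.118 for Phf19. The share of called genes that were higher was 79.2% on the main scaling, 58.4% on the percentile of all probes, 92.9% under quantile normalization, 50% on spike-ins, and 100% with normexp background correction and with the authors' values. By the brightest probe and with no adjustment, at p up to 0.05, 1 of the 10 PRC2 genes passed (Phf19) beside 20.0% of all genes, and with the replicate numbers as pairs 3 passed (Ezh2, Suz12 and Phf19) beside 27.2%. By the brightest probe, 1 of 10 was lower in every P38α-/- array (Ezh2) beside 19.7% of all genes, and 0 of 10 were higher in every array beside 7.46%.

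Read by the brightest probe, 2 of the 10 log2 differences were above 0 and 8 below it, with a median of -0.14, beside 34.4% of all genes above 0 and a median of -0.16 over all tested probes. This split follows the scaling: 9 of 10 were above 0 on the percentile of all probes, 7 on spike-ins, 4 under quantile normalization, 3 with the authors' values and 2 with normexp. Relative to the median probe, 6 were above and 4 below on the main scaling, with a median of 0.02, and 2 above and 8 below with the authors' values, with a median of -0.16. Ezh2, Suz12, Phf19 and Rbbp7 were below the median probe on all 6 scalings, and Mtf2 was above it on all 6. Phf19 and Rbbp7 came as near to it as -0.015 and -0.012. The main scaling, the percentile of all probes and spike-ins differ by recentring alone and give the same relative values. Ezh2, Suz12 and Phf19, the 3 genes with an E2F match in the start regions shown above, had the lowest differences by the brightest probe on the main scaling. This was noticed with the values in view and has no test. The filter also favoured a low value for Phf19, which cleared background on 2 of 3 P38α-/- arrays. Genes without a match had other probes as low as Ezh2 or lower, the second Aebp2 probe at -0.85 and the 2 dim Ezh1 probes at -0.60 and -0.42. The order by brightest probe did not hold on every scaling, since under quantile normalization Rbbp7 (-0.18) and Ezh1 (-0.15) were below Phf19 (-0.13), and with the authors' values Phf19 was at 0.047. Within the same-numbered pairs Ezh1, Ezh2, Suz12 and Phf19 were lower in the P38α-/- array in 3 of 3. The share of all genes lower in 3 of 3 was not counted, and most genes were below 0 on this scaling. With 3 pairs no p under 0.25 is possible.

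**Figure D3:**
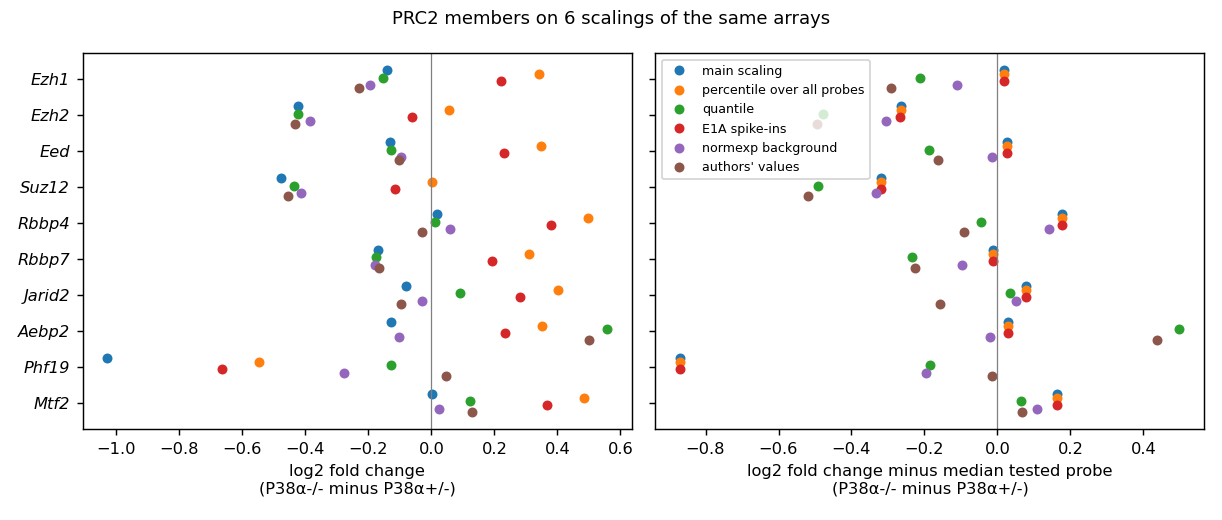
Log2 difference (P38α-/- minus P38α+/-) of the brightest tested probe of each PRC2 gene on 6 scalings of the same 6 arrays, as measured (left) and after subtracting the median of all tested probes (right). On the left the points of most genes lie on both sides of 0, with Ezh2 at -0.42 on the main scaling and 0.057 on the percentile of all probes. On the right all points of Ezh2, Suz12, Phf19 and Rbbp7 are below 0, some of Phf19 and Rbbp7 only just, and all points of Mtf2 are above 0. There the main scaling, the percentile of all probes and spike-ins coincide, since they differ by recentring alone.

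Differences between 2 probes of the same array do not depend on how arrays are centred, and were used to ask whether the members changed unequally. Ezh1 minus Ezh2 was 0.90, 0.93 and 0.46 in P38α+/- and 1.21, 1.07 and 0.87 in P38α-/-. Its mean was 0.76 ± 0.26 (SD, n = 3) in P38α+/- and 1.05 ± 0.17 (SD, n = 3) in P38α-/-, a shift of 0.28 towards Ezh1 with overlapping genotypes and a two-sided exact permutation p of 0.3. Within the same-numbered pairs it was positive in 3 of 3, with an exact sign permutation p of 0.25, the smallest that 3 pairs allow. Recentring cannot change it, and under the alternatives that can (background correction, quantile normalization, array weights, flagged spots and left-out arrays) it ranged from 0.10 to 0.37. With the second Ezh1 probe it was 0.28 as well, and with the 2 dim probes 0.00 and -0.17. Ezh2 itself stood 0.27 below the median probe and the brightest Ezh1 probe within 0.02 of it. A probe at the median would thus show nearly the same shift against Ezh2.

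The other members were set against Ezh2 in the same way, and since all 9 pairs share Ezh2, its own difference of -0.42 enters each of them. Rbbp4 minus Ezh2 was 3.07, 2.79 and 2.97 in P38α+/- and 3.36, 3.40 and 3.39 in P38α-/-, a shift of 0.44 with no overlap between the genotypes. Mtf2 minus Ezh2 was -2.20, -2.42 and -2.27 in P38α+/- and -1.88, -1.89 and -1.83 in P38α-/-, a shift of 0.43, again without overlap. Both had an exact permutation p of 0.10, the smallest possible, and 0.386 after Benjamini-Hochberg adjustment over the 9 pairs. In these pairs the P38α-/- arrays lay closer together, with an SD of 0.02 for Rbbp4 and 0.03 for Mtf2, than the P38α+/- arrays, with 0.14 and 0.11. Suz12 minus Ezh2 moved by -0.05, from -0.88 ± 0.03 (SD, n = 3) to -0.93 ± 0.20 (SD, n = 3), and Phf19 minus Ezh2 by -0.60, both with overlap.

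**Figure D4:**
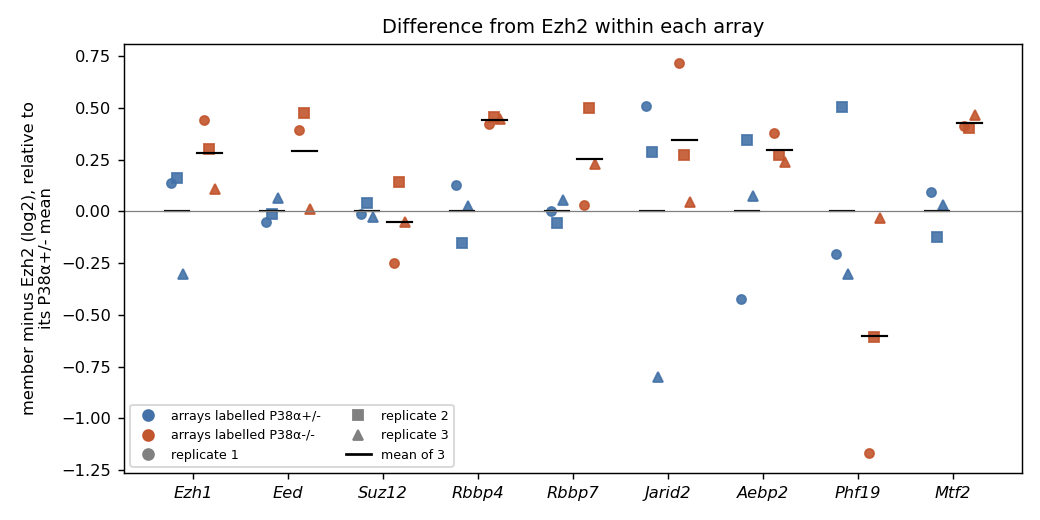
Log2 intensity of each PRC2 gene minus that of Ezh2 in the same array, relative to the mean of that difference in the 3 arrays labelled P38α+/- (blue, with the 3 labelled P38α-/- in orange, marker shape for the replicate, black lines for means). The orange points of Rbbp4 and Mtf2 lie together above all blue points of the pair, at 0.44 and 0.43 on average, while those of the other pairs overlap with the blue ones.

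Likeness to Ezh2 was measured as the root mean square difference of mean-centred log2 values over the 6 arrays, among 11987 genes or unnamed transcripts well above background on every array. Suz12 ranked 206 with 0.117, ahead of Rbbp7 at 1229, Eed at 1660, Mtf2 at 2074 and Ezh1 at 2192, and Jarid2 at 8512 was the least like among the 8 members that could be ranked. The nearest named genes were Fam241a with 0.0367 and Fam13b with 0.0504, and a predicted transcript of Gm11783 had 0.0464. The remaining places among the nearest 5 went to probes without a gene name, the first of them with 0.0261. The genes share the same 6 arrays, which differ in detection, and this order is a description only.

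Around PRC2, none of the genes in the related lists was called, beside 0.170% of all genes. Of the other accessory subunits, Phf1 and Lcor were tested, at log2 differences of -0.15 and -0.17, and Epop and Ezhip did not clear background on a single array. Both tested genes lay within 0.02 of the median probe on the main scaling, and Phf1 was at 0.33 on the percentile of all probes. Both enzymes that remove methyl groups from H3K27 had values below 0 on the main scaling. Kdm6a read -1.93, -1.40 and -1.47 in P38α+/- and -2.16, -1.94 and -2.04 in P38α-/-, without overlap, a log2 difference of -0.45 (limma adjusted p = 0.247) that was 0.03 on the percentile of all probes. Kdm6b had -0.74 (adjusted p = 0.268), with overlap, and remained below 0 on all 6 scalings, at -0.26 to -0.74.

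PRC1, the complex that binds the PRC2 mark and ubiquitylates histone H2A, had 17 of 22 genes tested, 5 above 0 and 12 below, with a median of -0.16, but 14 above and 3 below on the percentile of all probes and 13 and 4 on spike-ins. Its largest positive value was that of Cbx2, a reader of the mark, which read -6.32, -7.03 and -7.14 in P38α+/- and -5.28, -5.44 and -5.62 in P38α-/-. Cbx2, not well above background in the P38α+/- arrays, was at least 1.74-fold higher in P38α-/- on the main scaling (limma adjusted p = 0.0879). This bound takes the dimmest detected signal of each P38α+/- array as its floor. With normexp the log2 difference of Cbx2 was 0.31, less than this bound. Cbx7, another reader, read -4.95, -5.67 and -6.13 in P38α+/- and -6.35, -6.80 and -6.70 in P38α-/-. Not well above background in the P38α-/- arrays, it was at least 1.56-fold lower there on the main scaling (adjusted p = 0.160). That bound did not hold on every scaling. The log2 difference of Cbx7 was -0.22 with normexp, -0.10 under quantile normalization and -0.03 with the authors' values. Cbx2 and Cbx7 each entered the test only through the genotype where they are high. The filter thus favoured their direction, and their p-values are no support for it. Pcgf1, of a variant PRC1, had 0.32 (adjusted p = 0.536), and Bmi1, which stimulates the ubiquitin ligase, had -0.95 (adjusted p = 0.282), with no overlap on the main scaling and 0.00 with the authors' values. Bmi1 cleared background on 2 of 3 P38α-/- arrays and was tested only through P38α+/-, so the filter favoured its direction too.

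The other complexes that use Rbbp4 and Rbbp7, namely NuRD, Sin3 and CAF-1, had 16 of 17 genes tested, 8 above 0 and 8 below, with a median of 0.00, but 15 above and 1 below both on the percentile of all probes and on spike-ins. Sin3b, a corepressor scaffold, read 1.33, 1.45 and 1.38 in P38α+/- and 1.90, 2.13 and 2.11 in P38α-/-, a log2 difference of 0.66 (adjusted p = 0.107) that was positive on all 6 scalings. Mta3, a NuRD subunit, had 0.27 (adjusted p = 0.379), also without overlap. Gatad2b and Chd3, both of NuRD, had -0.52 and -0.20 (adjusted p = 0.418 and 0.521), and Chd3 turned positive on the percentile of all probes, at 0.28. The E2F-regulated S phase list had 20 of 21 genes tested, 10 above 0 and 10 below, but 20 above and 0 below both on the percentile of all probes and on spike-ins, with a mean level of 2.00 ± 0.09 (SD, n = 3) in P38α+/- and 1.98 ± 0.03 (SD, n = 3) in P38α-/-. Its ends were Cdc6, a licensing factor, at 0.21 and Dnmt1, the maintenance DNA methyltransferase, at 0.20, and Rrm2 of ribonucleotide reductase at -0.25 and E2f2 at -0.33 (adjusted p = 0.512, 0.558, 0.381 and 0.245). E2f2 and Rrm2 were lower in every P38α-/- array on the main scaling, as were 19.7% of all genes. Both were positive on the percentile of all probes, at 0.15 and 0.24.

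Of the genes of the JNK, Cdk1 and Smurf2 arm that the study names, 6 of 7 were tested, 2 above 0 and 4 below, and 4 above and 2 below on the percentile of all probes. Jund, an AP-1 factor activated by JNK, read 2.82, 2.68 and 1.97 in P38α+/- and 4.71, 3.86 and 3.90 in P38α-/-, a log2 difference of 1.66 (adjusted p = 0.0961). Map3k4, a kinase upstream of P38 and JNK, had 1.03 (adjusted p = 0.0879). Both were higher in every P38α-/- array, as were 7.46% of all genes, and above 0 on all 6 scalings, and neither passed the test. Smurf2, the ubiquitin ligase, was lower in every P38α-/- array with each of its 3 probes, at -0.55, -0.77 and -1.79 (adjusted p = 0.155, 0.126 and 0.103), while the brightest was 0.12 under quantile normalization. By the brightest probe 19.7% of all genes were lower in every P38α-/- array. The probe with -1.79 cleared background on 1 of 3 P38α-/- arrays. It entered the test only through P38α+/-, so the filter favoured its direction and its p-value is no support for it. Cdk1, the mitotic kinase, had 1 tested probe. It read -4.15, -4.80 and -5.17 in P38α+/- and -5.79, -5.95 and -5.85 in P38α-/-. Its log2 difference of -1.15 (adjusted p = 0.115) was negative on all 6 scalings. This probe cleared background on 2 of 3 P38α-/- arrays and was tested only through P38α+/-, so the filter favoured its direction. Other Cdk1 probes, too dim to test, were at -0.38 and 0.13, both with overlap. Ccnb1, the partner of Cdk1, had -0.14. These genes were chosen with the study's account of them known.

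Genes that PRC2 commonly silences were mostly too dim to compare, since 18 of 20 were not tested. Hoxa7 and Nkx2-2 were, at -0.92 and -0.78 (adjusted p = 0.207 and 0.160), each clearing background on 2 of 3 P38α-/- arrays, and Nkx2-2 was 0.03 under quantile normalization. The brighter Bcl2l11 probe cleared background on 2 arrays per genotype and was not tested. It read -3.89, -5.23 and -6.28 in P38α+/- and -5.72, -5.47 and -5.91 in P38α-/-. The P38α-/- values lay inside the range of the P38α+/- values. Hoxa9 cleared background on 1 P38α+/- array and on 0 P38α-/- arrays, and no difference could be measured.

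**Figure D5:**
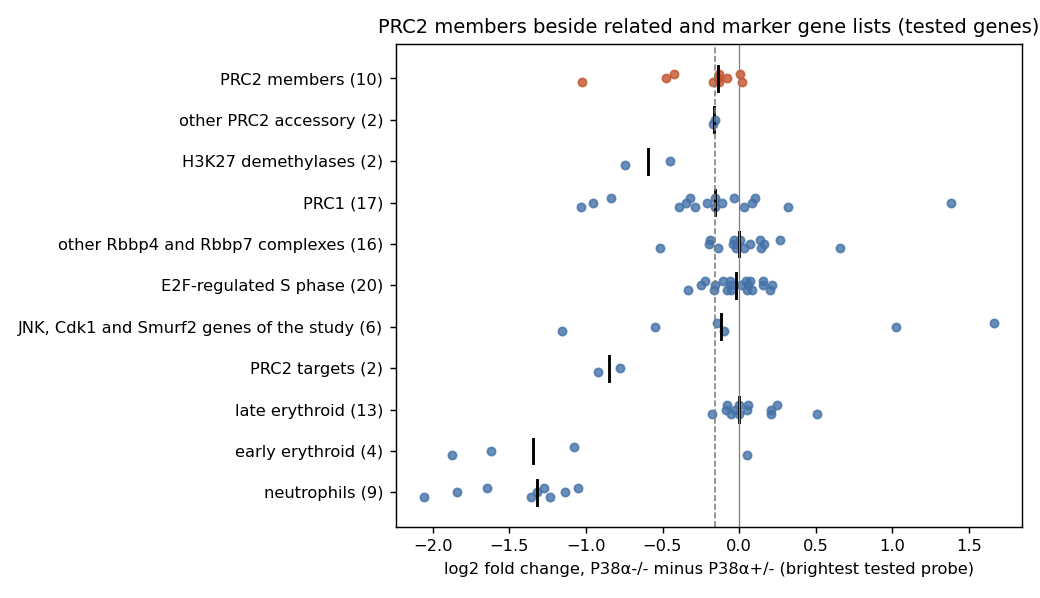
Log2 difference (P38α-/- minus P38α+/-) of the tested genes of each list by the brightest tested probe, with the number of tested genes in brackets, a black line at each median, and PRC2 in orange. The dashed line is the median of all tested probes at -0.16. PRC2, PRC1, the Rbbp4 and Rbbp7 complexes and the S phase genes centre near that line or 0 on this scaling (not on the percentile of all probes, where most of these genes are above 0), and the neutrophil genes lie below -1.

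Tested marker genes of neutrophils and B cells had lower levels in the P38α-/- arrays, none of them past the test. All 9 neutrophil genes were tested and lay below 0 on all 6 scalings. On the main scaling 7 of them were lower without overlap, beside 19.7% of all genes. The ends of the list were Lcn2 at -1.05, S100a9 at -1.14, Elane at -1.85 and Mpo at -2.06. Their mean level by array ranged from 2.04 to 3.63 in P38α+/- and from 1.03 to 1.70 in P38α-/-. Of 8 B cell genes 3 were tested, and the mean level of those ranged from -5.00 to -2.94 in P38α+/- and from -7.45 to -6.02 in P38α-/-. In P38α-/- the defining markers Ms4a1 and Ebf1 did not clear background. On the main scaling they were at least 2.94-fold and 3.48-fold lower, and Cd79b was at -2.42 (adjusted p = 0.103, 0.0663 and 0.255). With normexp Ms4a1 and Ebf1 were at -0.75 and -0.90, less than these bounds. Both entered the test only through the P38α+/- arrays, so the filter favoured their direction and their p-values are no support for it. On the main scaling 3 of 3 tested T or NK cell genes and 7 of 7 tested monocyte or macrophage genes were below 0, of which 2 and 2 were above it on the percentile of all probes, and 3 of 4 megakaryocyte or platelet genes were above 0. The ends of these lists were Lck at -0.07, Cd3e at -0.32 and Nkg7 at -1.67, then C1qb at -0.25, Cd68 at -0.43, Adgre1 at -1.67 and Vcam1 at -1.75, and then Gp1ba at 1.01, Gp9 at 0.33, Itga2b at 0.22 and Pf4 at -1.42, with adjusted p-values of 0.184 or more. Of the early erythroid genes 4 of 5 were tested, with Myc at 0.05, Myb at -1.08, Kit, the receptor of stem cell factor, at -1.62 and Cd34 at -1.87 (adjusted p = 0.924, 0.267, 0.160 and 0.255). Myc was above 0 and the others below 0 on all 6 scalings, and Kit and Cd34 cleared background on 2 and 1 of the 3 P38α-/- arrays and were at -0.67 and -0.63 with normexp. The part that these cells have in the values of Ezh2, Suz12, Phf19, Kdm6b or Smurf2 was not tested. Within the PRC2 genes the array P38α-/- replicate 1, which had the fewest probes well above background, was the lowest of the 6 for Ezh2, Suz12, Phf19, Rbbp4, Rbbp7 and Mtf2, and without it Ezh2 differed by -0.33, Suz12 by -0.28 and Phf19 by -0.65.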

How the data were processed

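The authors hybridised Cy3-labelled cRNA, amplified from 10 ng of total RNA, and deposited the intensity of each spot as Agilent Feature Extraction 10.7.3.1 wrote it, background-subtracted within the array. Per the labels and file headers the arrays have 1 colour, and probe positions are those of mm9. A deposited table of normalized intensity values, whose steps are not given in the sources used here, served as an alternative (0 columns were unassigned).

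Spots marked as outliers were left out, and log2 signals were averaged over the spots of a probe. From each array was subtracted the 75th percentile of those 15538 probes that cleared background (the scanner software's mark) in all 6. Probes well above background on all 3 arrays of a genotype were tested (18782 probes, 14155 genes) with limma 3.58.1 in R 4.3.3, two-sided, with Benjamini-Hochberg adjustment over all tested probes, after a trial on simulated data. For a probe that cleared background on all arrays of only 1 genotype, this filter favoured the direction in which that genotype is higher. The probes of Phf19, Cdk1, Bmi1, Cbx2, Cbx7, Hoxa7, Nkx2-2, Kit, Cd34, Ms4a1 and Ebf1 were among these. So were the dimmest Ezh1 probe and the Smurf2 probe at -1.79. A gene was read by its brightest tested probe. Single values were compared by exact permutation of the arrays. The number of arrays limits the precision. Probes were named through RefSeq accessions (27509), symbols (3549) or synonyms (404), and 24219 kept the name in the file. Coordinates of start regions are those of GRCm38.p6.

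Named genes were every member probe, the 2 highest and 2 lowest tested genes of each other list, the genes Bcl2l11, Hoxa9, Smurf2, Cdk1, Kdm6a and Kdm6b, a few defining markers and the 5 profiles most like Ezh2. One gene that this rule names is not reported here. The members and lists were chosen with earlier results of these data known. Same-numbered arrays of the genotypes deviated together (correlations of 0.54, 0.31 and 0.42, at most 0.18 between different numbers) and the series speaks of pairs of mice, so the numbers were taken to pair the samples and a blocked fit was run as an alternative. The other alternatives were 5 scalings, 2 filters, slide, array weights, the methods' unpaired equal-variance test, 1 added after seeing the data (spots flagged for local background left out) and each array left out.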

Additional observations from a re-analysis of the deposited data

How the results depend on the processing

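By the brightest tested probe no alternative called a PRC2 gene. The second Aebp2 probe passed both thresholds with array weights (-1.23, adjusted p = 0.0230) and in no other alternative. The number of genes called moved from 24 to 658 with the percentile of all probes, 14 under quantile normalization, 4 on spike-ins, 11 with normexp (offset 50), 10 with the authors' values, 0 without a filter on dim probes (1777 genes 2-fold changed with unadjusted p up to 0.05), 56 among probes well above background on all 6 arrays, 53 with the replicate block (pairing by replicate number), 0 with the slide as a block (906 at that unadjusted p), 1462 with array weights and 2 by the methods' t-test. It was 25 without spots flagged for local background. Leaving out each array gave 0 to 84 genes called: 84 without P38α+/- replicate 3, 10 without P38α+/- replicate 1, and 0 without any of the other 4. The cause was not tested. With the replicate block, 13 genes called were higher and 40 lower, beside 19 and 5 without it. The slide block equals leaving out P38α-/- replicate 3, since that array is alone on its slide, so slide and that mouse cannot be told apart.

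The log2 difference of Ezh2 was 0.057 on the percentile of all probes and negative in the other 17 alternatives, from -0.53 to -0.32 with each array left out. On the percentile of all probes the sign also turned for Suz12 (0.0031), Jarid2 (0.40), Eed (0.35), 3 probes of Ezh1 (0.057, 0.34 and 0.34), Rbbp7 (0.31) and Aebp2 (0.35). On spike-ins it turned for Jarid2 (0.28), Eed (0.23), the 2 brightest Ezh1 probes (0.22 each), Rbbp7 (0.19) and Aebp2 (0.23). Under quantile normalization it turned for Jarid2 (0.091), 2 Ezh1 probes (0.11 and 0.23) and Aebp2 (0.56). With the authors' values it turned for Phf19 (0.047), Rbbp4 (-0.030), 2 Ezh1 probes (0.062 and 0.20) and Aebp2 (0.50). The authors' column for P38α-/- replicate 2 ranked probes unlike its scanner file (Spearman 0.898, over 0.999 for the other 5). With the slide as a block it turned for Mtf2 (-0.041), Rbbp4 (-0.010), Jarid2 (0.044) and a Rbbp7 probe (-0.029). With each array left out, these near-zero values spanned 0: Mtf2 from -0.065 to 0.12, Rbbp4 from -0.065 to 0.14, Jarid2 from -0.37 to 0.075, the Rbbp7 probes from -0.14 to 0.24 and from -0.37 to 0.039, Eed from -0.30 to 0.0069 and Aebp2 from -0.44 to 0.039. The median of all tested probes lay between -0.27 and 0.32 over the alternatives. Signal near background limits the precision for Phf19, Aebp2 and the 2 dim Ezh1 probes.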
